A study of Mus musculus with 5 samples.

Results

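The cells described here were macrophages of the mouse dermis that carried RNA of complement C1q together with RNA of a group of markers of long-lived tissue macrophages, and no detected Trem2. They were selected on measured values: a cell had at least 3 UMIs (unique molecular identifiers, each standing for 1 captured transcript) over C1qa, C1qb and C1qc, at least 3 over Mrc1, Folr2, Pf4, Cd163, Cbr2 and F13a1, and 0 for Trem2. The rule took 307 of the 6162 cells that passed a floor of 200 genes and a ceiling of 10% mitochondrial UMIs, and these 307 are called resident cells below. Residence in the tissue was not measured, and the name is a label for the rule. The study sequenced live CD45+ cells (CD45 marks blood-derived cells) sorted from digested dermis of C57BL/6 mice by 3'-end droplet RNA sequencing, with 1 library for each of 5 groups. Libraries P45, P50, P63 and P80, read here as days after birth, cover telogen, the resting phase of the hair cycle. P50_Depil5D is a depilated sample, read here from its label as 5 days after depilation. The label does not say whether P50 is the day of depilation or of collection. With 1 library a group there is no replicate, no difference between libraries has a test, and all intervals below cover counting error alone.

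Macrophages in the dermis take up debris, present antigen and supply signals to nearby cells. Those next to vessels and nerves are known for the mannose receptor Mrc1 (CD206), the folate receptor Folr2, the haemoglobin-haptoglobin receptor Cd163 and the transglutaminase F13a1, and they release chemokines that bind CCR2 and related receptors. Macrophages with Trem2, a receptor for lipids, are known for genes of lipid handling and lysosomes, and Cd209a/Mgl2 cells of the dermis are mostly dendritic cells. Both of the latter served as comparison cells: Trem2-positive cells had at least 2 C1q UMIs and a Trem2 UMI, and Cd209a/Mgl2 cells had no C1q UMI and at least 2 UMIs of Cd209a and Mgl2.

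The libraries P45, P50, P63, P80 and P50_Depil5D held 179, 67, 25, 15 and 21 resident cells, with 482871, 131929, 62813, 21519 and 56559 UMIs in all and median UMIs a cell of 2294, 1653, 1987, 932 and 2165. Levels are UMIs summed over the cells of a class and library, scaled to 1000000 UMIs (CPM). A single UMI was therefore worth 2.07 CPM at P45 but 46.5 CPM at P80. Cell barcodes recurred between libraries: each pair among P50, P63, P80 and P50_Depil5D shared 134 to 193 barcodes of kept cells, against 0 to 7 for pairs with P45. Such cells were 247 of 488 at P80 and 15 of the 307 resident cells, 8 of them at P63. A single barcode was a resident cell in 4 libraries, and it held all Krt1 UMIs of the resident cells there (11 at P50, 7 at P63, 20 at P80 and 9 at P50_Depil5D). Further, 27 of the 307 cells had at least 2 Cd3 UMIs, 3 had at least 1% keratin UMIs, and 32 had under 0.5 of their library's median share of ribosomal pseudogene UMIs. That median was 7.08%, 3.70%, 18.5%, 25.0% and 3.51% in library order, so P63 and P80 stood apart. The shared-barcode cells held 51.6% of the resident UMIs at P63 and 39.7% at P80, against 0.391%, 3.74% and 3.83% at P45, P50 and P50_Depil5D. Leaving them out moved 28 of 106 listed or named genes with at least 20 UMIs by over 1.5 times at P63 and 8 of 59 at P80, and 0 of 259, 161 and 83 at P45, P50 and P50_Depil5D. Single values at P63 and P80 below are therefore less certain than the others, and levels use all cells unless stated.

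Among the genes that chose the cells, Pf4, the platelet factor 4 chemokine, was the marker found in the most cells. It was detected in 95.1% of resident cells, Mrc1 in 82.1%, F13a1 in 67.8%, Cbr2 in 61.2%, Cd163 in 54.7% and Folr2 in 43.3%. The median cell had 4 of the 6 markers, and 58 cells would leave without Pf4. Folr2 UMIs summed to 152, 79, 10, 14 and 18 in library order, or 315, 599, 159, 651 and 318 CPM, so the cells are better described by Pf4 and Mrc1 than by Folr2. Ccl8, a marker that the rule did not use, had 8582, 13303, 6893, 7900.0 and 7921 CPM. Of other markers known for perivascular macrophages, Lyve1 gave 0, 8, 3, 4 and 2 UMIs, Timd4 4, 4, 0, 0 and 1 and Vsig4 3, 0, 0, 0 and 0. Timd4 and Vsig4 were thus at or near 0. Lyve1 had few UMIs as well, but at the low depth of P80 its 4 UMIs were 186 CPM. Without the shared barcodes Lyve1 had 0, 7, 0, 0 and 0 UMIs. Macrophage genes were present in every library, with Csf1r, the receptor for macrophage growth factor, at 603, 796, 494, 1162 and 229.8 CPM and Adgre1 (F4/80) at 321, 409, 159, 139 and 212 CPM.

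Cells at the edge of the rule looked different from its middle. The 23 cells with exactly 3 marker UMIs had 2019 CPM of Ccl8, and the 21 cells with 2, just outside, had 62.1. For C1q, the 17 cells with 3 UMIs had 2584 CPM of Ccl8 and the 17 cells with 2 had 893. Taken as 1 group all 307 had 9197 CPM. A further 53 cells met every part of the rule but carried a Trem2 UMI, and their Ccl8 was 2380.3 CPM. These 53 are among the 102 Trem2-positive cells used for comparison below.

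Markers of other cell types were not absent, at levels that differed by list. Summed over 10 T and NK genes, resident cells had 1004, 303, 302, 186 and 1132 CPM, with Ncr1 at 0. Over 10 keratinocyte genes they had 288, 1107, 700.5, 3346 and 477 CPM, none of the 10 at 0. Over 11 monocyte genes they had 2191, 1311, 2229, 1905 and 1998 CPM, with Vcan among those at 0. Over 12 dendritic genes they had 1899, 841, 1831, 2138 and 1167 CPM. The leading genes of these lists were not low: S100a4 and Mgl2 had means over libraries of 1227 and 943 CPM, against 964 for the gate marker Mrc1. Fibroblast genes (6) summed to 677, 273, 334, 92.9 and 53.0 CPM with Pdgfra at 0, and endothelial genes (6) to at most 127 CPM with Kdr, Emcn and Egfl7 at 0. Mast cell and neutrophil genes (8) reached 68.3 CPM.

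Several chemokine genes and lectin genes described below are neighbours in the genome. Ccl2, Ccl7, Ccl12 and Ccl8 lie on chromosome 11 between 82035571 and 82116799 (mm10/GRCm38, GENCODE vM21), all on the plus strand, with Ccl11 among them. Cd209a lies on chromosome 8 at 3743397 to 3748984 and Cd209f at 4102787 to 4105835, both on the minus strand. The 250 bases before the RefSeq start (GRCm38.p6) are shown for a pair of resident chemokine genes and for 2 Cd209 genes that differ between the classes. They are Ccl8 (chr11:82114935-82115184, plus strand), Ccl12 (chr11:82101595-82101844, plus strand), Cd209f (chr8:4105765-4106014, minus strand) and Cd209a (chr8:3748985-3749234, minus strand). Each is written 5′ to 3′ along its gene's strand, with capitals for matches on either strand to the AP-1 site TGACTCA, the MAF half-site TGCTGA or the PU.1 core GAGGAA.
Ccl8: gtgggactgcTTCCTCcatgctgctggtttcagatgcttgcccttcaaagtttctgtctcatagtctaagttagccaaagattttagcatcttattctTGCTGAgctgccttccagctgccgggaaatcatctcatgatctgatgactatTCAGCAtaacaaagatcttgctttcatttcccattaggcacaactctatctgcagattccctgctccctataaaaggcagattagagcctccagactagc
Ccl12: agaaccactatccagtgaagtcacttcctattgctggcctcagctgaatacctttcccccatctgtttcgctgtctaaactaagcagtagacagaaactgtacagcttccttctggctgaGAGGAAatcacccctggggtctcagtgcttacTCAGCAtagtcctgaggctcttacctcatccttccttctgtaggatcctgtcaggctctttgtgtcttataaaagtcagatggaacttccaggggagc
Cd209f: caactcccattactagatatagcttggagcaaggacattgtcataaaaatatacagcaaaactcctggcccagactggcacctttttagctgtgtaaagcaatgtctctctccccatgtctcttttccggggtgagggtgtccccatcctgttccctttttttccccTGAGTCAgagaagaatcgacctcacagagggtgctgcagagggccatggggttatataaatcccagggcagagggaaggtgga
Cd209a: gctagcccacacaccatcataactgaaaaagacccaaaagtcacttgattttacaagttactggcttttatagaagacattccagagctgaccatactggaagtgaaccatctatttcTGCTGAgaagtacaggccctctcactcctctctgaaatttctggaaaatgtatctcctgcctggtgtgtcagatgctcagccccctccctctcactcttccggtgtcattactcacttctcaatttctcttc
The Ccl8 stretch held 2 MAF half-sites and 1 PU.1 core, and that of Ccl12 held 1 of each. The Cd209f stretch held 1 AP-1 site and that of Cd209a 1 MAF half-site. Of 32851 such stretches, 4.46% held the AP-1 letters, 16.1% the MAF half-site and 23.3% the PU.1 core. The matches describe letters and show no binding.

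Ccl8, a CC chemokine gene, was at 8582, 13303, 6893, 7900.0 and 7921 CPM in resident cells in library order. Without the shared barcodes it stood at 8614, 13442, 12278, 11875 and 8218 CPM, so the P63 and P80 levels moved upward by over 1.5 times. Cd209a/Mgl2 cells had 57.9, 7.07, 46.7, 62.6 and 10.9 CPM, and no library overlapped. A Ccl8 UMI was found in 75.4%, 76.1%, 84%, 80% and 66.7% of resident cells. In Cd3-positive, C1q-negative cells, which should lack the gene, the shares were 17.4%, 1.16%, 4.11%, 6.17% and 0.289%, at median depths of 2529, 1206, 1510, 1159 and 1325 UMIs. Ccl8 was uneven among cells: at P45 the top 18 of 179 cells held 42.4% of its UMIs, and at P50_Depil5D the top 3 of 21 held 55.8%.

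The neighbouring genes Ccl7, Ccl2 and Ccl12 were detected in resident cells of every library. Ccl7 was at 1495, 2615, 1274, 2184 and 2528 CPM in resident cells and at 23.7, 9.90, 33.9, 444 and 42.2 CPM in Cd209a/Mgl2 cells, closest at P80. Ccl2, the main CCR2 ligand, was at 758, 1001, 892, 929 and 707 CPM against 80.1, 38.2, 59.4, 269 and 59.9. Ccl12 had 96, 48, 9, 2 and 14 UMIs, that is 199, 364, 143, 92.9 and 248 CPM, and at most 1.90 CPM in Cd209a/Mgl2 cells. Ccl11, which lies between Ccl7 and Ccl12, had no UMI in any resident cell. Ccl24, an eotaxin from another locus, was at 234, 197, 143, 186 and 88.4 CPM. Without the shared barcodes Ccl7 was 1499, 2630.1, 2205, 3239 and 2629 CPM and Ccl2 759, 1016, 1679, 1388 and 735. With all cells P50 had the highest level of the 5 libraries for each of Ccl8, Ccl7, Ccl2 and Ccl12, and without the shared barcodes for Ccl8 and Ccl12 only.

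The Cd209 lectin genes, which encode C-type lectins related to DC-SIGN, split between the classes. Cd209f was at 344, 834, 239, 465 and 265 CPM in resident cells and at 2.37, 1.41, 0, 0 and 1.36 in Cd209a/Mgl2 cells, and Cd209g at 168, 455, 31.8, 186 and 106 against 0.948, 2.83, 0, 0 and 0. Cd209a, used to choose the comparison cells, was at 656, 219.8, 414, 744 and 318 CPM in resident cells and 1026, 1169.9, 708, 1207 and 948 in Cd209a/Mgl2 cells. Cd209d was detected in both classes in every library, at 907, 508, 987, 976 and 990.1 against 1004, 833, 772, 613 and 971 CPM. Cd209f came from few cells: 65, 20, 7, 5 and 7 resident cells of 179, 67, 25, 15 and 21 had a UMI.

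**Figure D1:**
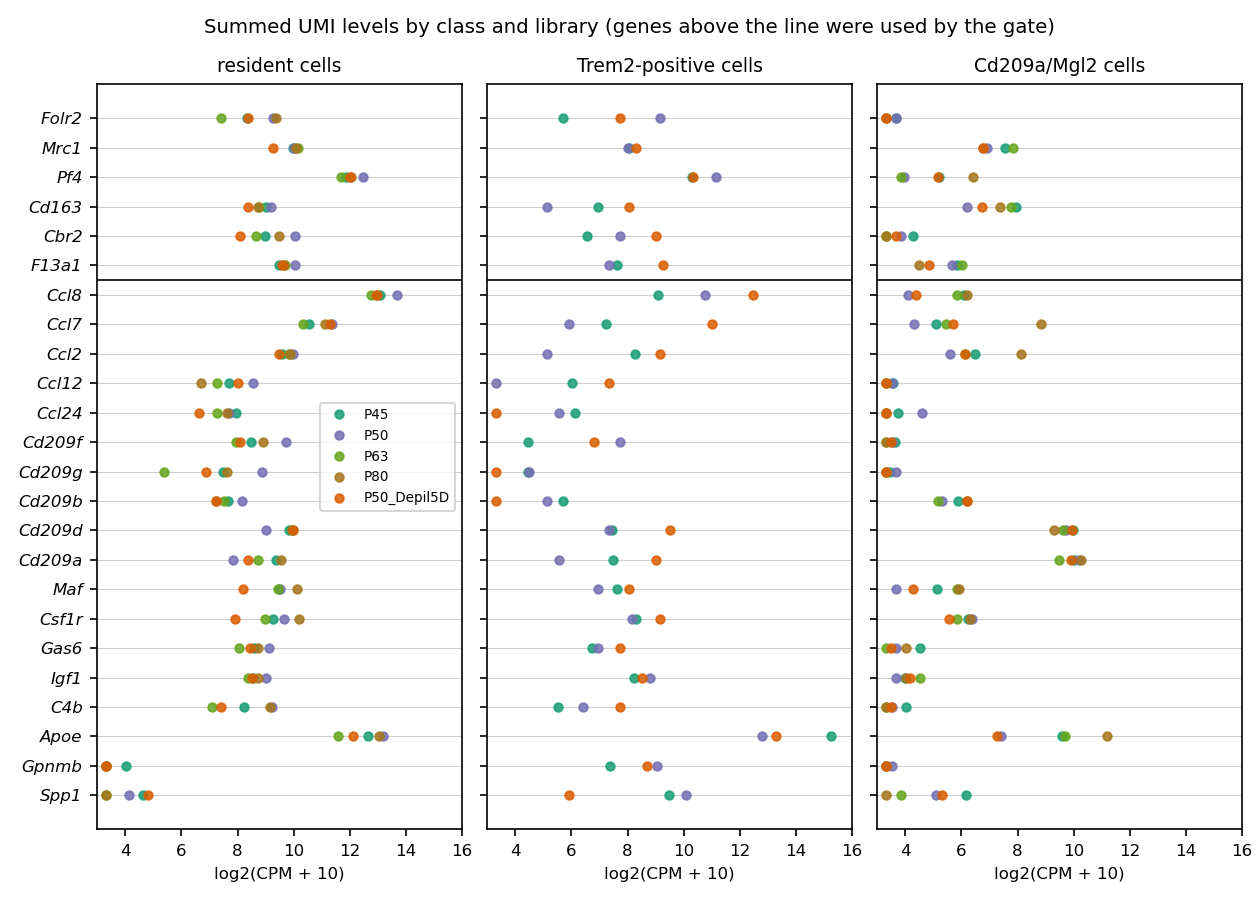
Levels of 24 genes as log2(CPM + 10) in resident, Trem2-positive and Cd209a/Mgl2 cells, 1 point for each library (Trem2-positive cells only where at least 10 were found). Genes above the line chose the resident cells, Cd209a helped choose the cells on the right, and Ccl8 lies between 6893 and 13303 CPM in resident cells.

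Resident and Trem2-positive macrophages were set against each other within P45, P50 and P50_Depil5D, the libraries with at least 10 cells of each class (63, 26 and 10 Trem2-positive cells). A gene was called when its log2 ratio, with 10 CPM added, averaged at least 1 in size and had 1 sign in all 3 libraries. Because the same cells' genes chose both classes, this is a description with no test. Of 4468 genes with at least 20 UMIs, 504 (11.3%) were called higher in resident cells and 157 (3.51%) lower, and the median log2 ratio over all of them was 0.24. Low ribosomal pseudogene shares were more frequent in Trem2-positive cells, 38 of 102 against 32 of 307, and without those cells the counts were 461 and 151. Left-out libraries moved the total of 661 more: it was 294 without P45, 896 without P50 and 651 without P50_Depil5D. Under edgeR's TMM scaling, which moved the median to 0.36, the split was 618 higher and 108 lower.

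Of the 27 further resident macrophage genes, 24 were measured, and 16 were higher, 0 lower, with a median log2 ratio of 1.55. They include Cd209g (3.64), Cd209b (2.96), Ccl8 (2.46), Cd209f (2.43), the neonatal Fc receptor gene Fcgrt (2.40), the cytokine gene Tslp (2.08), the transcription factor gene Maf (1.52) and the ligand gene Gas6 (1.57), all as mean log2 ratios. The list was chosen with earlier results of these data known, so its direction is no independent support. Ccl8 in Trem2-positive cells was 538, 1717 and 5706 CPM at P45, P50 and P50_Depil5D, so the classes were closest after depilation, on 10 Trem2-positive cells. Ccl7 did the same, at 139, 50.1 and 2038 CPM in Trem2-positive cells and 1495, 2615 and 2528 in resident cells. Of all 102 Trem2-positive cells, 53 met the resident rule but for their Trem2 UMI. With Trem2 not used in the gate, these counted as resident. The mean log2 ratio was then 8.04 for Ccl8 and -2.02 for Gpnmb, against -4.82 for Gpnmb with the rule. Those means use the libraries that still had at least 10 cells of each class. Of 15 measured chemokines, Ccl2, Ccl7, Ccl8, Ccl12 and Ccl24 were called higher and Cxcl16 lower.

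Retnla, which encodes the secreted protein RELM-alpha and is known as a target of interleukin 4 signalling, was the gene with the highest mean log2 ratio of those named, 5.68. Resident cells had 3038, 4093 and 2882 CPM at P45, P50 and P50_Depil5D, and Trem2-positive cells 556, 37.6 and 0. The resident levels came from a minority of cells: 53 of 179, 11 of 67 and 4 of 21 had a Retnla UMI. Without its top cell the P50_Depil5D level was 405 CPM. Of the genes of alternative activation, 7 of 12 were measured, and Retnla, Clec10a (1.51) and Ccl24 (2.40) were called higher, none lower.

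Genes of lipid handling and lysosomes lay on the other side. Of 21 measured lipid genes, 0 were higher and 9 lower in resident cells, with a median log2 ratio of -0.91, and 1 of the 9 was Trem2, which the rule set to 0. Gpnmb, a glycoprotein of lipid-laden macrophages, had 3, 0 and 0 UMIs in resident cells, and 6.21, 0 and 0 CPM against 157, 514 and 408. Spp1 (osteopontin) was at 14.5, 7.58 and 17.7 CPM against 707, 1065 and 51.0, with only 7, 1 and 1 resident UMIs. The 51.0 CPM of Trem2-positive cells at P50_Depil5D was 1 UMI, so the sign in that library rests on 1 UMI a side. Fabp5, Fabp4, Lpl and Plin2, genes of fatty acid and lipid droplet handling, had mean log2 ratios of -2.27, -2.65, -1.50 and -1.52. Of 19 lysosomal genes 5 were lower and none higher, among them the cathepsin genes Ctsd (-2.54) and Ctss (-1.92), Cd68 (-1.72) and Lgmn (-1.11).

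Apoe, the apolipoprotein gene, was not called. It was at 6472, 9293 and 4456 CPM in resident cells and 38873, 7031 and 10139 in Trem2-positive cells, higher in resident cells at P50 and lower in the other 2 libraries. Cd3-positive, C1q-negative cells had 3369, 4317, 3893, 6027 and 3003 CPM of Apoe over the 5 libraries against 6472, 9293, 3041, 8504 and 4456 in resident cells. The part of free RNA in the resident value was not tested.

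Uptake receptors were divided. Stab1 (1.11), the adaptor gene Dab2 (1.27), the inhibitory Fc receptor gene Fcgr2b (1.79), Fcgrt and Mfge8 (1.13) were higher in resident cells and Axl, a receptor for dying cells, lower (-2.98), 6 of 15 measured. Of 28 measured transcription factor genes, Maf, Egr1 (2.53), Klf9 (1.26) and Rxra (1.23) were higher and Irf8 lower (-1.81). These 4 and 1 of 28 are close to the shares over all genes measured, 11.3% higher and 3.51% lower. The ferritin genes Ftl1 (-1.37) and Fth1 (-1.23) and the haem transporter gene Slc48a1 (-1.16) were lower, and Cp (ceruloplasmin) higher (2.16), 4 of 10 iron genes. None of 14 measured antigen presentation genes was called in either direction. Of T and NK genes, 3 of 7 (Cd3g, Thy1 and Ctla2a) were higher in resident cells, and so was Krt10 of 6 keratinocyte genes. The part of T cell or keratinocyte RNA in these calls was not tested class by class, and without other-lineage cells 598 genes were called in all.

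Outside the lists, Igfbp4 (2.83), Ap1b1 (2.73), Fh1 (2.70), Tns1 (2.63), Sgpp1 (2.62), Adam19 (2.59) and Plekhg5 (2.54) were among the 12 highest mean log2 ratios. Igfbp4, which encodes a binding protein of insulin-like growth factors, had 90, 33 and 2 resident UMIs and 9, 0 and 0 in Trem2-positive cells. The lowest were Mmp12, a macrophage elastase gene (-3.82), Gngt2 (-3.16), Kcnn4 (-2.79), Syngr1 (-2.72), Cd72 (-2.69), Rhoc (-2.24), Susd3 (-2.17) and Glipr1 (-2.15). Mmp12 had 31, 1 and 0 UMIs in resident cells against 16, 37 and 14 in far fewer Trem2-positive cells. Lgals7 and Sfn, known from keratinocytes, were also among the highest, and Lgals7 was not higher at P45.

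**Figure D2:**
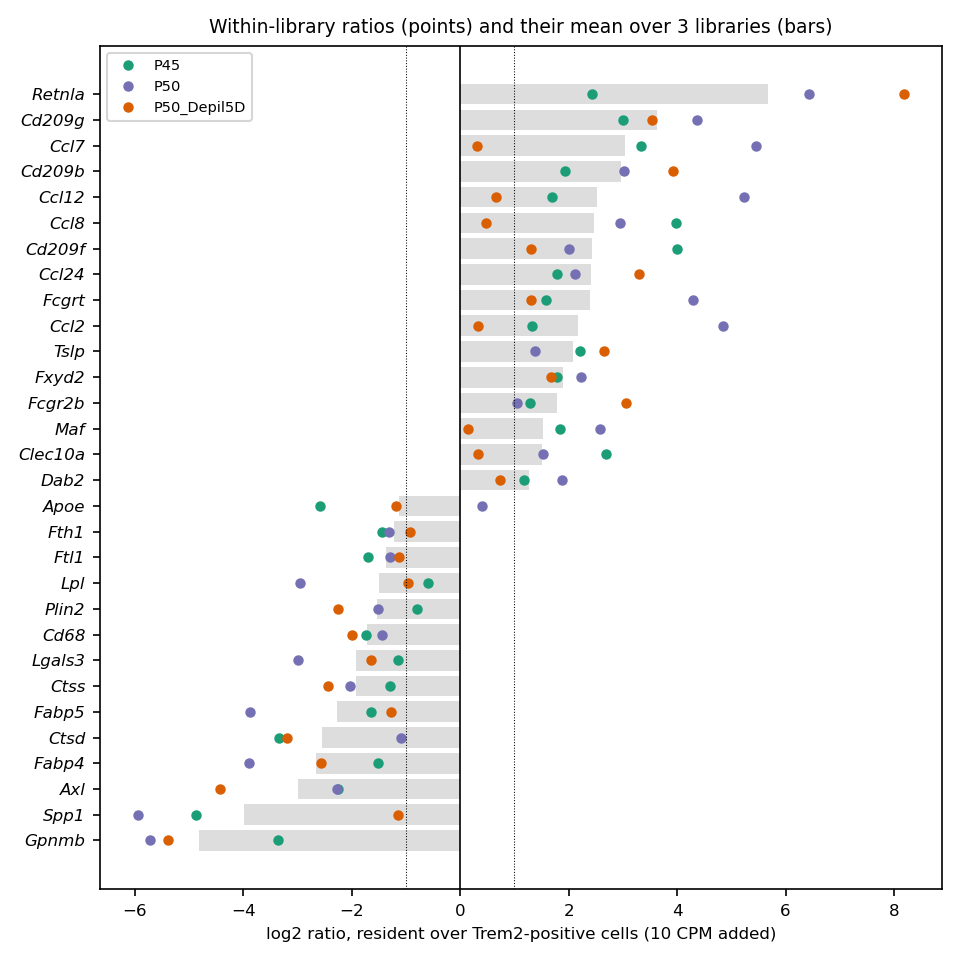
Log2 ratios of resident over Trem2-positive cells (10 CPM added) for 30 genes, with points for P45, P50 and P50_Depil5D and bars for their mean. Dotted lines mark 1 and -1, and Retnla at the top (5.68) and Gpnmb at the bottom (-4.82) span the range shown.

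Against Cd209a/Mgl2 cells, compared in all 5 libraries by the same call rule, 349 of 8697 genes (4.01%) were higher in resident cells and 204 (2.35%) lower. Of the 24 measured further resident genes, 17 were higher and 0 lower, led by Ccl8 (mean log2 ratio 7.77), Cd209f (5.17), Gas6 (4.78), Igf1 (4.56) and Maf (4.38). Of 17 macrophage core genes, 9 were higher, among them Ms4a7 (4.03), Csf1r (3.14) and the Fc receptor gene Fcgr1 (2.73). Csf1r was at 603, 796, 494, 1162 and 229.8 CPM against 65.4, 73.6, 46.7, 68.8 and 36.8. Of 19 lysosomal genes 11 were higher and 0 lower, for example Lgmn (3.86), Ctsl (3.27) and Ctsb (2.89). Resident cells thus stood between the other classes for Ctsd and Lgmn: lower than Trem2-positive cells and higher than Cd209a/Mgl2 cells.

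Complement genes other than C1q were part of this difference. C4b, a component of the classical pathway, was at 292, 591, 127, 558 and 159 CPM in resident cells against 6.16, 1.41, 0, 0 and 1.36. The receptor gene C5ar1 was at 236, 387, 143, 418 and 88.4 CPM against 5.22, 4.24, 4.24, 0 and 2.72. In all 6 of 13 measured complement genes were higher, among them C4b, C3ar1, C5ar1, Cfp and Itgam, and Itgax, which encodes CD11c, was lower (-1.29). Growth factor genes Igf1 and Gas6 were higher, with Igf1 at 369, 508, 318, 418 and 354 CPM against 5.69, 2.83, 12.7, 6.26 and 8.17, and Il1b was lower (-1.41). Hmox1 (haem oxygenase, 2.72), Blvrb (2.24), Slc11a1 (2.17), Tfrc (1.52) and Slc25a37 (1.12) were higher among 11 iron genes.

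Antigen presentation genes were mostly not called between these classes, although MHC class II RNA was lower in resident cells. None of 16 was called higher, and H2-DMa (-1.06) and H2-DMb2 (-1.89), which load peptides on MHC class II, were called lower. H2-Aa was at 7762, 4965, 8263, 5298 and 7673 CPM in resident cells and 11949.6, 11051, 9726, 8295 and 12697 in Cd209a/Mgl2 cells, lower in resident cells in each library. Of 10 measured dendritic genes Flt3 (-1.70), Ccl17 (-2.48), Dpp4 (-1.19) and Cd209a (-1.20), which the comparison cells were chosen by, were lower. Retnla (4.74) and Clec10a (2.10) were again higher. Krt1 was called higher (3.26), and apart from 2 UMIs at P45 all its UMIs came from the barcode that 4 libraries share.

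Resident cells were the largest share of sorted cells at P45 and the smallest after depilation. Of all cells kept they were 8.36% (7.22% to 9.61%), 4.58% (3.57% to 5.78%), 4.34% (2.83% to 6.34%), 3.07% (1.73% to 5.02%) and 1.41% (0.872% to 2.14%) in library order, with exact Clopper-Pearson 95% intervals. The P80 over P45 ratio was 0.368 (95% interval 0.202 to 0.623) and the P50_Depil5D over P50 ratio 0.307 (95% interval 0.178 to 0.507). After thinning each cell to 1000 UMIs, which left out 0, 285, 9, 189 and 170 shallower cells, the shares were 5.42%, 4.42%, 2.47%, 2.01% and 1.06%. The share of sorted CD45+ cells also moves with the other cells in the sort, so the denominator matters.

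Set against resident plus Cd209a/Mgl2 cells, a choice made after seeing the data, telogen shares had overlapping intervals: 20.5%, 21.1%, 22.3% and 17.9% at P45, P50, P63 and P80. The depilated library had 6.75%. The P80 over P45 ratio on this base was 0.87 (95% interval 0.477 to 1.47), with an interval that includes 1, and the P50_Depil5D over P50 ratio was 0.319 (95% interval 0.186 to 0.528). Without shared barcodes the P80 over P45 ratio of all cells was 0.645 (95% interval 0.337 to 1.13). Against resident plus Trem2-positive cells it turned to 1.27 (95% interval 0.695 to 2.15), on 1 Trem2-positive cell at P80, and the depilated ratio was 0.94 (95% interval 0.547 to 1.55). On that last base both intervals include 1, so no difference in the proportion of the macrophage classes was detectable at these cell numbers.

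**Figure D3:**
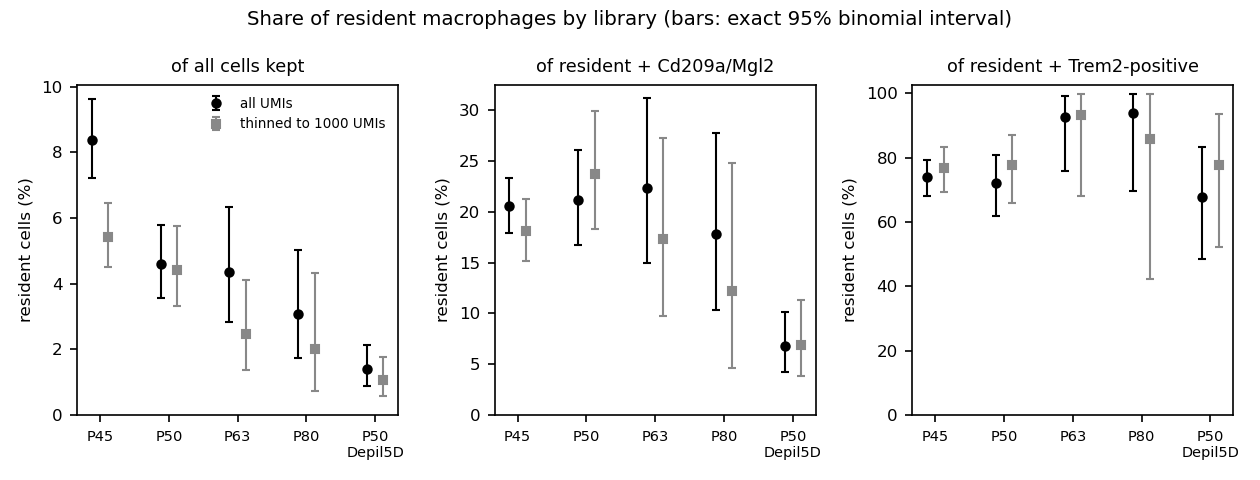
Percent of resident cells among all cells kept, among resident plus Cd209a/Mgl2 cells and among resident plus Trem2-positive cells in each library, with exact 95% binomial intervals. Black points use all UMIs and grey squares 1000 UMIs a cell, and P50_Depil5D is lowest in the first 2 panels.

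A Ccl8 UMI was present in 233 of the 307 cells and absent in 74, and these were compared within P45 and P50, the libraries with at least 10 cells of each kind. This split was chosen after seeing the data. Of 3347 genes with at least 20 UMIs, 584 (17.4%) were higher with Ccl8 and 115 (3.44%) lower, with 10 CPM added. The 6 marker genes of the gate, whose sum chose the cells, were higher with Ccl8 (Folr2 by a log2 ratio of 3.22) and 0 of its 3 C1q genes were, which is a description of the selected cells. Among genes that the gate did not use, 19 of 23 measured further resident genes were higher, Cd209f (5.09), Tslp (4.43), Cd209g (4.30) and Ccl24 (3.95) first. Hmox1 (3.91), C4b (2.89) and the endothelin receptor gene Ednrb (4.21) were higher too. Median depths were 2294 and 2290 UMIs with and without Ccl8 at P45, and 1387 and 2020 at P50. Markers of other cell types moved with the split. Higher with Ccl8 were 3 of 3 measured fibroblast genes (Col1a1, Col1a2 and Col3a1) and 3 of 4 keratinocyte genes (Krt14, Krt15 and Perp), and 67 of 68 P50 UMIs of Krt14 lay in 1 cell. Of 7 T and NK genes Nkg7 and Ctla2a were lower and Lat higher. Values without other-lineage cells were computed for MHC class II and Retnla, given below, and not for the other genes of the split.

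Cells without Ccl8 had more RNA of MHC class II genes and of Retnla. Of 5 measured genes of the monocyte list, Ccr2 and Fn1 were lower with Ccl8 and Plac8 higher (1.23). Genes lower with Ccl8, named after their values were seen, included Ccl4 (-4.39), the lysozyme genes Lyz1 (-2.74) and Lyz2 (-1.17), Ms4a4c (-2.43) and Clec12a (-2.36). Also lower were Ear2 (-2.05), Fn1 (-1.76) and Ccr2 (-1.72), the gene of a receptor for the Ccl2 product. Of 12 measured antigen presentation genes, H2-Aa, H2-Ab1, H2-Eb1, Cd74 and H2-DMa were lower with Ccl8 and 0 higher. Ccr2 was at 154, 50.2, 285, 0 and 0 CPM with Ccl8 and 362, 278, 787, 789 and 493 without, in library order. Maf was at 865, 864, 817, 1211 and 354 CPM with Ccl8 and 185, 278, 0, 395 and 70.5 without. Both orders held in all 5 libraries, although P63, P80 and P50_Depil5D had just 4, 3 and 7 cells without Ccl8. Folr2 kept its order in 4 libraries, and at P80 it was 579 CPM with and 1184 without.

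The MHC class II share of a cell's UMIs had medians of 3.36%, 0.781%, 5.43%, 3.62% and 4.29% with Ccl8 and 7.01%, 6.07%, 8.54%, 5.39% and 5.68% without. Medians were thus lower with Ccl8 in each library, most at P50, and the ranges of single cells overlapped. Without shared-barcode and other-lineage cells the P50_Depil5D medians were 5.67% and 5.68%, and after thinning the order at P80 turned, on 5 cells and 1 cell. Retnla was at 1255, 3062, 1443, 1159 and 23.6 CPM with Ccl8 and 8507, 7267, 15256, 7893 and 11419 without. At least 10 Retnla UMIs were found in 15 of 233 cells with Ccl8 and in 24 of 74 without. Retnla was concentrated: at P50_Depil5D 1 cell held 141 of 163 UMIs, and at P45 the top 18 cells held 92.6%. The order of Retnla was the same in each library without shared-barcode and other-lineage cells.

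**Figure D4:**
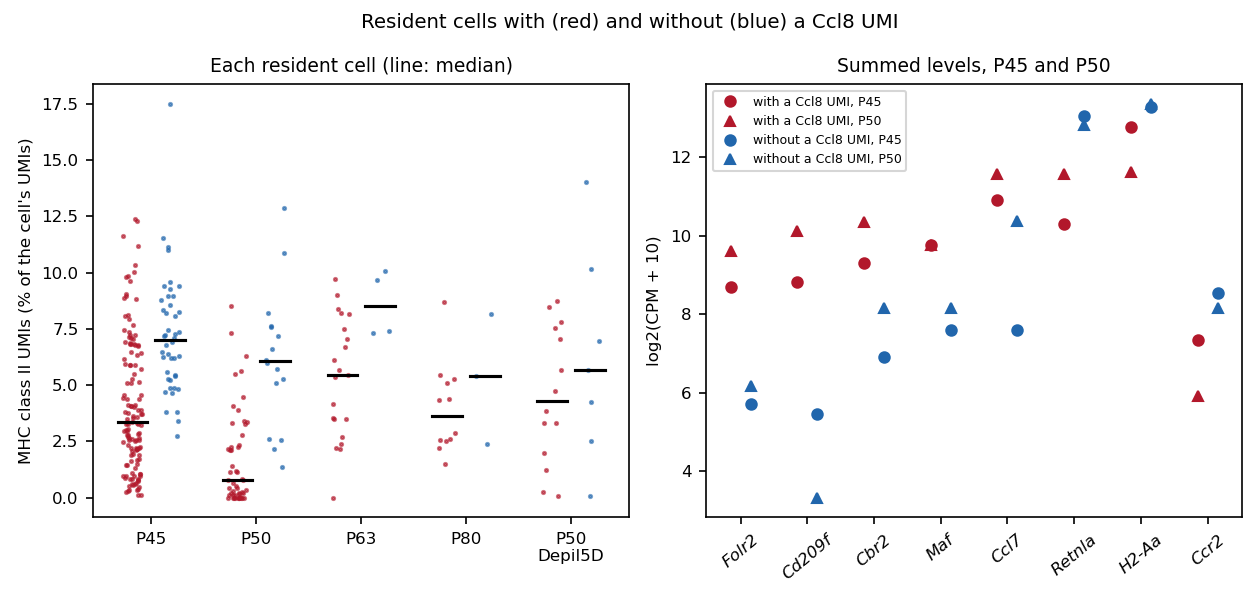
Left, MHC class II UMIs as percent of each resident cell's UMIs, for cells with (red) and without (blue) a Ccl8 UMI in each library, with lines at the medians. Right, summed levels of 8 genes as log2(CPM + 10) at P45 (circles) and P50 (triangles): Folr2, Cd209f, Cbr2, Maf and Ccl7 lie higher with Ccl8, and Retnla, H2-Aa and Ccr2 lie higher without.

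The 4 telogen libraries asked how the cells differ over the resting phase, and P80 was set against P45. Here 388 of 2856 genes with at least 20 UMIs (13.6%) were past a log2 ratio of 1 and 708 (24.8%) past -1. With a 95% counting interval that excludes 1 as well, a rule chosen after seeing the data, 136 genes (4.76%) were higher and 38 (1.33%) lower. Under edgeR's TMM scaling the median log2 ratio moved from -0.13 to -0.98 and the split past the fold to 63 higher and 1417 lower, so directions depend on the scaling. For the main resident genes the ratio was 0.921 (95% counting interval 0.785 to 1.07) for Ccl8, 1.07 (95% counting interval 0.674 to 1.63) for Mrc1 and 1.12 (95% counting interval 0.8996 to 1.39) for Pf4. Folr2 was 2.07 (95% counting interval 1.10 to 3.58), on 14 UMIs at P80. Mrc1, Pf4 and Folr2 helped choose the cells, so their ratios describe the selected cells only. Without the shared barcodes the ratios were 1.38 (95% counting interval 1.17 to 1.62) for Ccl8, which turned in direction, 1.24 (95% counting interval 0.702 to 2.03) for Mrc1, 1.61 (95% counting interval 1.27 to 2.02) for Pf4 and 2.68 (95% counting interval 1.31 to 4.94) for Folr2.

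Pim1, a kinase gene that cytokine receptors induce through STAT proteins, was higher at P80 than in the other 4 libraries. It was at 545, 364, 939, 2370.0 and 707 CPM in library order, a P80 over P45 ratio of 4.35 (95% counting interval 3.16 to 5.89), and without shared barcodes it was 2236 CPM at P80. In Cd209a/Mgl2 cells it was 854, 866, 1145, 1320.0 and 782 CPM. Hmox1 was at 263, 478, 159, 929 and 619 CPM, a ratio of 3.53 (95% counting interval 2.09 to 5.69). Under TMM its log2 ratio was 0.81, below the threshold, and that of Pim1 was 1.12. The TMM factors, 1.64 at P80 and 0.821 at P45, lower every P80 over P45 ratio alike. Most rises given next, those of Cebpb, Klf4, Cd83, Cd63 and Cd14 among them, would not be past the fold under TMM. Their ratios and intervals below use CPM. Transcription factor genes Cebpb (2.37 (95% counting interval 1.74 to 3.18)), Klf4 (2.52 (95% counting interval 1.68 to 3.66)) and Stat3 (3.34 (95% counting interval 1.27 to 7.44)) were higher, with Klf4 at 572, 349, 573, 1441 and 354 CPM. Immediate early and stress genes Fosb (2.21) and Ier3 (3.68) were higher as ratios, and without the shared barcodes they were 2.91 and 3.88. Btg2 had a ratio of 2.40 with all cells and of 0.566 (95% counting interval 0.153 to 1.47) on 4 UMIs without the shared barcodes, so its direction rests on them. Higher as ratios were also Cd83 (2.73), Il4ra (4.99), Cd63 (2.05) and Cd14 (2.04), the last at 3.22 without the shared barcodes. The intervals for Stat3 and Il4ra included 1 without them, at ratios of 3.16 (95% counting interval 0.826 to 8.63) and 4.12 (95% counting interval 0.464 to 17.2). The 15 resident cells at P80 were the shallowest. Of other-lineage genes, 5 of 5 measured keratinocyte genes were higher at P80 by the fold, 4 of them with the interval rule. By the fold 7 of 7 T and NK genes were lower, 0 of them with the interval rule. The part of these cell types in these values was not tested.

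Lower at P80 was Lpl, the lipoprotein lipase gene, with 183, 25, 28, 0 and 16 UMIs in library order, which at 0 of 21519 UMIs is at least 2.72-fold lower than P45 (floor of 3 UMIs in the library). H2-DMa was 2.82-fold lower (95% counting interval 1.36 to 7.06) and Cltc, the clathrin heavy chain gene, 4.48-fold lower (95% counting interval 1.22 to 37.2) on 2 UMIs. Without the shared barcodes H2-DMa had 1 UMI, a ratio of 0.0845 (95% counting interval 0.00213 to 0.473), and the interval for Cltc included 1, at 0.369 (95% counting interval 0.0444 to 1.35). Hsp90aa1 had 3 UMIs, a ratio of 0.316 (95% counting interval 0.0647 to 0.936), and Col1a2 1 UMI, a ratio of 0.136 (95% counting interval 0.00342 to 0.768). Without the shared barcodes Hsp90aa1 had 1 UMI, a ratio of 0.175 (95% counting interval 0.00441 to 0.985), and Col1a2 a ratio of 0.226 (95% counting interval 0.00569 to 1.28). Col1a1, a fibroblast gene, had no UMI and was at least 1.46-fold lower. Outside the lists the highest ratios belonged to Sfn and Lgals7, of whose P80 UMIs the single shared barcode held 22 of 27 and 18 of 28, to the ribosomal pseudogenes Gm10263, Rps18-ps3, Gm10250, Gm10116 and Rpl13-ps3, and to Tnfaip2 (8 UMIs in 3 cells). Rgs1, Ssr4, Cytip, Timm10b, Ndufb11, Hbb-bs, Apod and Sparc had 0 UMIs at P80. The pseudogenes move with the library medians given above, and their part was not tested further.

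The depilated library was set against P50 to ask what differs in these cells after hair removal. Of 1104 genes with at least 20 UMIs, 47 (4.26%) were past a log2 ratio of 1 and 132 (12%) past -1, and with the counting interval 39 (3.53%) were higher and 80 (7.25%) lower. TMM scaling gave 41 and 141. Over all cells, P50 was itself at the end of the range for many of these genes. Of the 80 lower genes P50 was the highest of all 5 libraries for 56, P50_Depil5D the lowest for 56, and P50_Depil5D lay within the range of P45, P63 and P80 for 24. Of the 39 higher genes P50_Depil5D was the highest of 5 for 27 and P50 the lowest for 19. Levels in all 5 libraries are therefore given for the main genes.

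Il1b, the gene of the inflammatory cytokine interleukin 1 beta, was the clearest case. It was at 723, 182, 605, 465 and 1927 CPM in library order, a P50_Depil5D over P50 ratio of 10.6 (95% counting interval 6.76 to 17.2), so the depilated level lay above all 4 telogen libraries. A UMI was found in 16 of 21 cells after depilation and in 9 of 67 at P50, against 88, 12 and 6 of 179, 25 and 15 cells at P45, P63 and P80. Without its top cell the depilated level was 1714 CPM. In Cd209a/Mgl2 cells Il1b was at 1504, 1606, 1200.3, 1614 and 2194 CPM, and in Cd3-positive, C1q-negative cells at 307, 101, 95.6, 183 and 59.8. Trem2-positive cells had 979, 213 and 1630.4 CPM at P45, P50 and P50_Depil5D.

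Cxcl2, a chemokine gene for neutrophils, was at 1141, 887, 1974, 883 and 3112 CPM, a ratio of 3.51 (95% counting interval 2.76 to 4.47). It was carried by 10 of 21 cells after depilation against 29 of 67 at P50, its top cell held 54 of 176 UMIs, and without that cell the level was 2372 CPM. At P63, 100 of 124 UMIs lay in 1 cell, which the P63 level without shared barcodes, 625 CPM, leaves out. Cxcl16 had a ratio of 2.69 (95% counting interval 1.19 to 6.15) and H2-DMa 2.39 (95% counting interval 1.73 to 3.31), the latter at 917, 591, 1051, 325 and 1414 CPM by library. Jun was at 891, 334, 955, 836 and 796 CPM, so that P50 was lowest and the depilated library lay between P50 and the other telogen libraries. Hspa1a (2.37), Ier3 (2.76) and Fabp5 (3.27) were higher as ratios. Of 2 measured T and NK genes both were higher, Cd3g with 20 UMIs in 2 cells, and of 3 keratinocyte genes Krt5 and Krt14 were lower.

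Genes of the resident list were lower after depilation in 8 of 21 measured cases and higher in 0 by the fold, with a median log2 ratio of -0.78 against -0.03 over all genes measured. Of the gate genes, Cbr2 was at 493, 1054, 398, 697 and 265 CPM, 3.97-fold lower (95% counting interval 2.33 to 7.29) than P50, and C1qa at 1644, 4146, 1528, 2231 and 1467 CPM, 2.83-fold lower (95% counting interval 2.24 to 3.60). Gate genes helped choose the cells, so these values describe the selected cells and give no independent support. C1qa was highest at P50 of the 5 libraries, also without the shared barcodes, when it was 1651, 4166, 2205, 3007 and 1508 CPM. Csf1r (603, 796, 494, 1162 and 229.8 CPM) and Maf (698, 720.1, 685, 1115 and 283 CPM) were lowest in the depilated library, 3.46-fold and 2.55-fold lower than P50. Tslp had 3 UMIs after depilation, a ratio to P50 of 0.171 (95% counting interval 0.0338 to 0.535) (2 UMIs without the shared barcodes, 0.117), and Cd209g 6 UMIs, a ratio of 0.233 (95% counting interval 0.0823 to 0.538). Ccl8 (ratio 0.595), Pf4 (0.736), Mrc1 (0.587), Folr2 (0.531) and Ccl7 (0.967) were not past the fold.

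Complement and lysosomal genes showed the same direction. Of 6 measured complement genes 5 were lower by the fold and 0 higher. C4b was at 292, 591, 127, 558 and 159 CPM, C5ar1 at 236, 387, 143, 418 and 88.4 and Cfp at 253, 553, 350.2, 418 and 159. P50_Depil5D was lowest of the 5 for C5ar1 and Cfp, and for C4b only without the shared barcodes, when its levels were 293, 543, 263, 463 and 165 CPM. Of 18 lysosomal genes 6 were lower, among them Lgmn, Grn, Ctsc, Ctsd and Cd68, and 0 higher, for example Grn with a ratio of 0.366 (95% counting interval 0.244 to 0.533). With all cells P50 was the highest of the 5 libraries for each of these named genes. P50_Depil5D was the lowest for Lgmn, Grn, Ctsc and Cd68, and P80 for Ctsd. The median log2 ratio of the 18 genes was -0.80 for P50_Depil5D over P50 and 0.56 for P50 over P45. Apoe (0.479), Plin2 (0.373), Trf (0.264) and Blvrb (0.322) had ratios below 1 as well. P50 was again the highest library with all cells for Apoe, Plin2 and Blvrb, and P80 was for Trf. Sepp1, the selenoprotein P gene, was at 2110.3, 4214, 1688, 2184 and 1679.7 CPM, and without the shared barcodes at 2110.3, 4244, 2864, 3007 and 1728, highest at P50 both ways. Outside the lists Tapbp, Tmem106a, Ethe1, Igfbp4, Vmp1, Sptssa and Rnase4 were lowest, with 1 to 4 UMIs each after depilation, and Serpinb2 had all 30 P50 UMIs in 1 cell. Avpi1, Lsp1, Cytip, Ear2, Tuba1a, Srgn, Erh and Cd7 had the highest ratios.

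Ifi27l2a, an interferon-responsive gene, was at 615, 3047, 318, 929 and 849 CPM, highest at P50, where 59 of 67 cells had a UMI, and at 402, 1002, 259, 344 and 769 CPM in Cd209a/Mgl2 cells, also highest at P50. Its P50_Depil5D over P50 ratio was 0.279 (95% counting interval 0.202 to 0.376). Of 5 measured interferon genes 3 were lower after depilation (Ifi27l2a, Ly6e and Isg15), and 22 of the 32 Isg15 UMIs at P50 lay in 1 cell. H2-Aa was lowest at P50 among the libraries, and 48 of 67 cells had an H2-Aa UMI there against 173 of 179 at P45. Fos, an immediate early gene, was at 3543, 1046, 3391, 3206 and 1627 CPM, lowest at P50 too. Whether the library, its processing or the animals' state sets P50 apart cannot be told apart with 1 library a group.

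**Figure D5:**
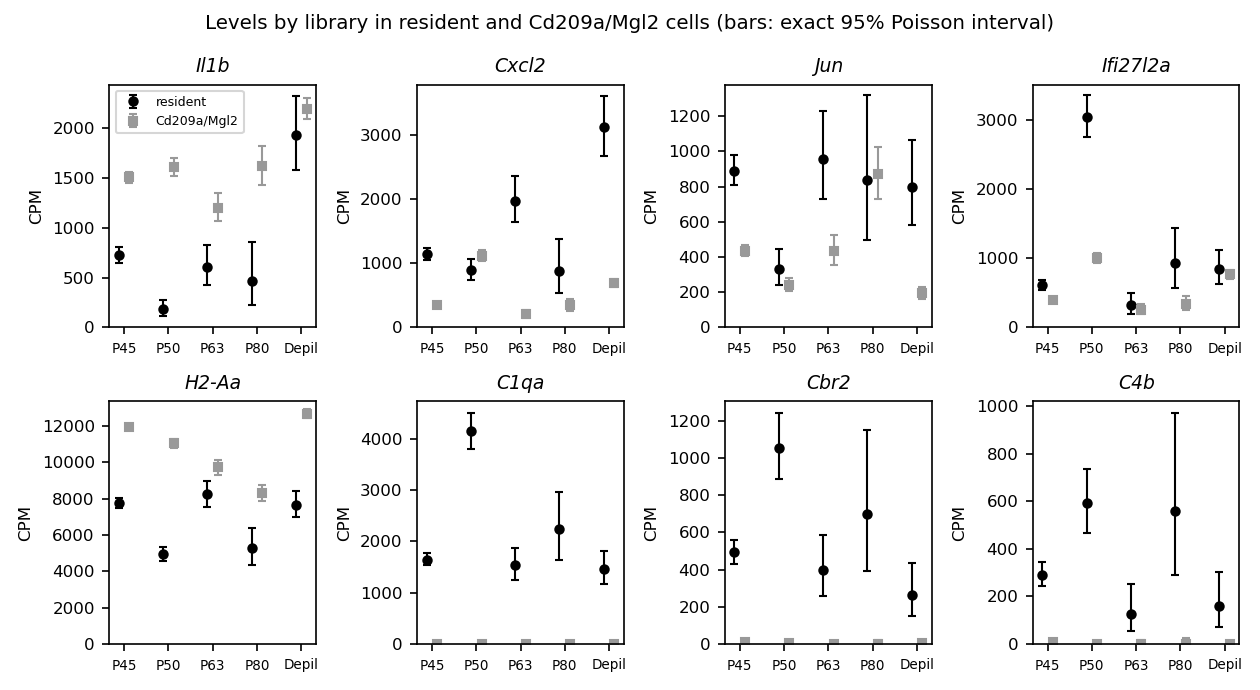
Levels in CPM of 8 genes in resident cells (black) and Cd209a/Mgl2 cells (grey) in each library, with exact 95% Poisson intervals. Il1b is highest in the depilated library, Ifi27l2a, C1qa and Cbr2 are highest and H2-Aa is lowest at P50 in resident cells, and C1qa is 0 in Cd209a/Mgl2 cells by their rule.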

How the data were processed

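The authors deposited 1 matrix of whole-number UMI counts for each of the 5 libraries, with 27998 genes and 6223 barcodes in all. Per the labels' protocols, sorted CD45+ live dermal cells went through the 10x Genomics platform and 3'-end libraries were sequenced on a HiSeq 4000. The submitters' processing notes name mm10 and Seurat, and for the aligner, counting tool and cell calling the sources used here name nothing. Gene identifiers were matched to GENCODE vM21 (27645 of 27998), and promoter sequences came from RefSeq tables of GRCm38.p6.

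Barcodes with under 200 genes or over 10% mitochondrial UMIs were removed (61), which left 6162 cells; no doublet caller was run. Counts were summed over the cells of each class and library and divided by their total and scaled to 1000000 (CPM). Intervals are exact (Poisson, Clopper-Pearson, conditional binomial for ratios) at 95% and cover counting error only, since nothing in the labels gives replicates. Ratios used 10 CPM added on the log2 scale, genes with at least 20 UMIs over both sides, and a threshold of 1. No test was run: cells are not replicates, and the classes were chosen on the same cells' genes. Alternatives were the filters, the gate's thresholds, thinning to 1000 UMIs (of the gate only for gene counts and single genes), leaving out doubtful cells, 1 CPM added, no UMI minimum, edgeR TMM factors, other denominators and leaving out each library in the comparison with Trem2-positive cells only. Levels and ratios without shared barcodes and the cleaned and thinned Ccl8 split were added after seeing the data.

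The genes named were those of the gate and markers, the members of each list with the highest mean level (at most 6) or past the fold, and outside the lists the 12 highest and 8 lowest ratios to Trem2-positive cells and 8 in each direction between libraries. Genes of the split by Ccl8 were named after their values were seen, and some genes that the rule selects are not reported here. The cells and the 25 lists (348 of 350 symbols matched) were chosen with earlier results of these data known. Scripts were tested on simulated data. Python 3.11.15, numpy 2.4.6, scipy 1.17.1, pandas 2.3.3, matplotlib 3.10.9, R 4.3.3 and edgeR 4.0.16 (TMM factors only) were used.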

Additional observations from a re-analysis of the deposited data

Results flagged for a closer look

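For 6 genes the P50_Depil5D over P50 ratio was past the fold in resident cells, with an interval that excludes 1, and on the other side of 1 in Cd209a/Mgl2 cells, also with an interval that excludes 1; the difference between the classes was not tested. The ratio of Cxcl2 was 3.51 in resident cells and 0.617 in Cd209a/Mgl2 cells, with 176 and 117 resident UMIs. The ratio of Jun was 2.39 in resident cells and 0.795 in Cd209a/Mgl2 cells, and P50 was the lowest library in resident cells. The ratio of Lsp1 was 3.64 in resident cells and 0.854 in Cd209a/Mgl2 cells. The ratio of Cytip was 4.998 in resident cells and 0.8003 in Cd209a/Mgl2 cells, on 15 and 7 resident UMIs. The ratio of Cd7 was 5.33 in resident cells and 0.705 in Cd209a/Mgl2 cells, on 16 and 7 resident UMIs. These lay in 4 of 21 cells after depilation and in 2 of 67 at P50. Of the 21 depilated cells, 2 had at least 2 Cd3 UMIs, and the part of T cell RNA in the Cd7 ratio was not tested. The ratio of Blvrb was 0.322 in resident cells and 1.65 in Cd209a/Mgl2 cells, on 8 and 58 resident UMIs.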

How the results depend on the processing

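Of 214 alternative values, 193 were labelled the same as the main value, 20 moved and 1 reversed. For gene counts the label used the total and not the split by direction. Under TMM the P80 over P45 count was thus labelled the same. Its split was 63 higher and 1417 lower, against 388 and 708 in the main setting. The share ratios labelled moved, 0.645, 0.870 and 0.940, were still below 1. The P80 over P45 share ratio moved to 0.645 without shared barcodes and to 0.870 with resident plus Cd209a/Mgl2 cells as denominator (added after seeing the data), and reversed to 1.27 with resident plus Trem2-positive cells. The depilated share ratio moved to 0.940 on that last base. Genes past the fold for P80 over P45 (1096) were 702 after thinning, 5327 with no UMI minimum, 1480 under TMM and 174 with the interval rule, which was added after seeing the data. For P50_Depil5D over P50 (179) they were 3326 with no minimum and 119 with the interval rule. For resident over Trem2-positive cells (661) they were 1057 with no minimum and 294 to 896 when a library was left out. The interval rule and the UMI minimum change by construction which genes count; the cause of the other moves was not tested. Of 150 single-gene values 10 moved, for Retnla, Lyve1, C4b and C1qb after depilation and Hmox1 at P80. No paired analysis was possible because each group has 1 library. No library was left out of the Cd209a/Mgl2 comparison or the Ccl8 split. Depth limits P80 most, where 1 UMI was worth 46.5 CPM and Trem2-positive cells numbered 1.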
